A study of Drosophila melanogaster with 3 samples.

Results

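The genes described here are 36 genes of the nervous system that serve synaptic transmission and electrical excitability, out of 13945 protein-coding fly genes in the annotation. They were taken by name from a list drawn up with earlier results of these data known, and all 36 were found under their listed symbols. They fall into 5 classes by role. There are 5 genes for neuronal RNA-binding proteins, the cytoskeleton and the sodium pump, 11 for the vesicle release machinery, 10 for transmitter synthesis and transport, 4 for synaptic adhesion and scaffolding, and 6 for potassium channels. The study mapped the transcription factor Deaf1 on chromatin of whole Drosophila melanogaster embryos of both sexes, collected from 0 to 24 h of age. The embryos came from 1 transgenic line that stably expresses Deaf1 with green fluorescent protein (GFP) fused to its C terminus, and the fusion was precipitated with an antibody to GFP, although 1 label field names Deaf1 as the antibody. There were 3 biological replicates of this 1 group, with no wild-type or untagged group among the samples. The chromatin was not separated by cell type, so the cells in which a site was occupied cannot be told from these data.

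Deaf1 binds DNA through its SAND domain, which reads short sequences containing TTCG. Neurons release transmitter when an action potential opens presynaptic calcium channels, and calcium then triggers vesicles, held at the active zone by SNARE proteins, to fuse with the membrane. Voltage-gated potassium channels end the action potential and set how often a neuron fires. The ELAV family of RNA-binding proteins, found in neurons, steers splicing and polyadenylation of many of these transcripts.

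Peak lists of replicates 1, 2 and 3 were 30000 entries long each, and their median signals were 54.4, 52.7 and 41.1. The reproducible set, made by the authors with the irreproducible discovery rate (IDR), held 8667 summits with signals of 256 and above. A gene was counted as bound when a summit of that set lay within 500 bp of any annotated transcription start site (TSS). Signals are the authors' own peak scores and are not on 1 scale between lists, so a replicate's signal is given below as a multiple of the median of its own list. The number of reads behind the peaks is unknown.

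Deaf1 was found at the starts of 25 of the 36 genes (69.4%), against 27.8% of all protein-coding genes. By class these were 5 of 5 RNA-binding, cytoskeleton and pump genes, 5 of 6 potassium channels, 3 of 4 adhesion and scaffold genes, 7 of 10 transmitter genes and 5 of 11 release genes. In lists of equal length cut from the top of each replicate, 24, 23 and 23 of the 36 were bound in replicates 1, 2 and 3, a mean of 64.8% ± 1.60 (SD, n = 3). The same lists bound 27.2%, 28.9% and 27.2% of all protein-coding genes. In all 3 replicate lists 20 members were bound, and 11 were bound in none of them. Of all 13945 protein-coding genes, 3258 were bound in all 3 lists and 9419 in none. VAChT and ChAT share 1 TSS and 1 summit, and as 1 locus they leave 24 of 35 loci bound. Restricted to the 4333 strongest summits of the reproducible set, the count was 16 of 36, against 18.0% of all genes. The class differences were not tested, because genes are not replicates of a condition and the labels give a single group.

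**Figure D1:**
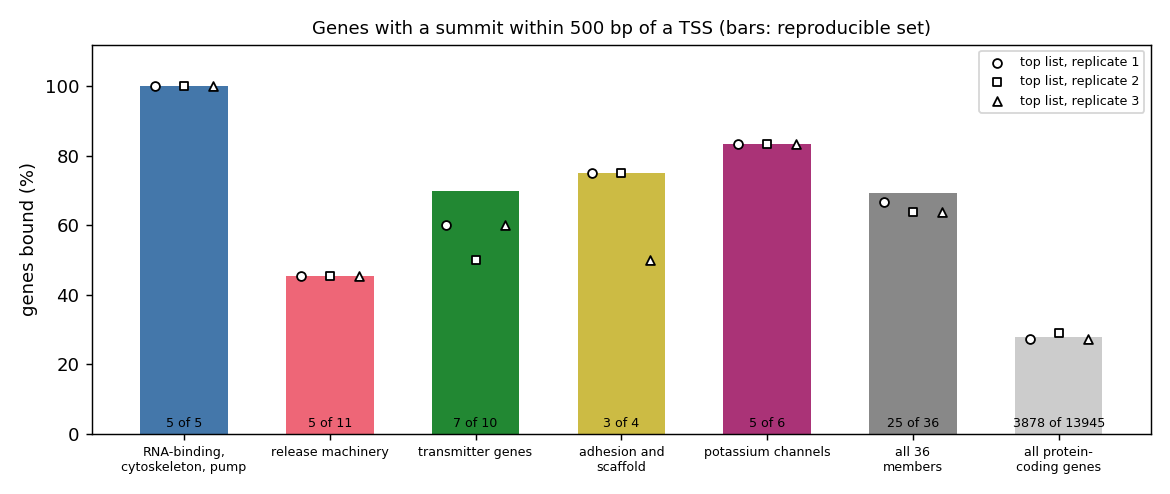
Share of genes bound in percent (vertical axis) for the 5 classes, all 36 members and all 13945 protein-coding genes. Bars give the reproducible set and symbols the top list of each replicate. Bars of the classes run from 45.5% for release machinery upward, and each stands above the 27.8% of all genes. All 3 replicate symbols of transmitter genes lie below their bar, and of adhesion genes only that of replicate 3.

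The members are longer than most genes and start at more places, and both properties went with binding across the genome. Their median length was 22.8 kb, against 2.17 kb for all protein-coding genes. Among genes of 20 kb and over, 13 of 19 members were bound (68.4%), against 77.2% of all 1013 genes of that length. Among shorter genes, 12 of 17 members were bound (70.6%), against 23.9% of all 12932. Members were thus below all genes in the longer group and above them in the shorter one. Most of all shorter genes, 11968, were under 10 kb, where 4 of 8 members were bound, against 21.1% of all. From 10 to 20 kb, 8 of 9 members were bound (88.9%), against 59.8% of all. In both of these bins the gap was smaller than in the shorter group taken whole. Within the longer group, 7 of 9 members of 20 to 40 kb were bound (77.8%), against 74.8% of all, and 6 of 10 of 40 kb and over (60.0%), against 80.0%. With a single TSS, 7 of 14 members were bound, against 19.7% of all such genes. Each of the 8 members with 2 TSSs was bound, against 42.0% of all. With 3 TSSs, 6 of 9 members were bound (66.7%), against 61.5% of all. At 4 or more TSSs the shares were 4 of 5 and 80.5%. The part of length and TSS number in the overall share was not tested further.

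**Figure D2:**
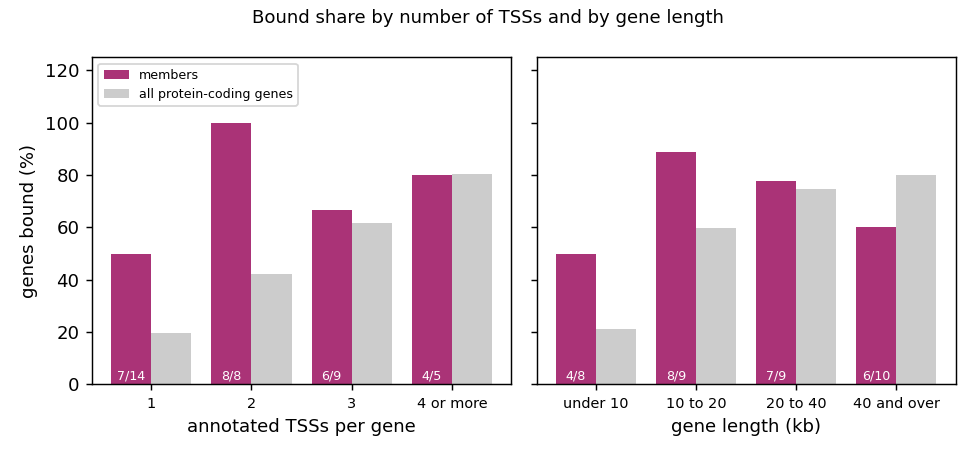
Share of genes bound in percent (vertical axis) for members and for all protein-coding genes, by number of annotated TSSs (left) and gene length in kb (right), with bound over total members printed in the bars. Members stand above all genes at 1 and 2 TSSs and under 20 kb, and by less at 3 TSSs (66.7% and 61.5%) and 20 to 40 kb (77.8% and 74.8%). They stand below all genes at 40 kb and over (60.0% and 80.0%), and at 4 or more TSSs the shares are 80.0% and 80.5%.

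Every gene of the RNA-binding, cytoskeleton and pump class was bound in each replicate, and 2 of them had the highest mean promoter signals of the 36 members. The nrv3 gene (FBgn0032946), a beta subunit of the sodium pump, had a signal of 59.0, 51.0 and 53.2 times the list median in replicates 1, 2 and 3 (mean 54.4 ± 4.12, SD, n = 3). Its summit lay 1 bp from an internal TSS. The futsch gene (FBgn0259108), for a microtubule-associated protein of axons, had promoter summits at 2 of its 3 TSSs. They were almost equal, at 45.1, 42.1 and 38.0 times the median for the one 134 bp inside the gene's start, and 44.6, 41.8 and 34.4 for the one 11 bp upstream of the TSS that lies 2657 bp farther in. Of the ELAV family, elav itself, the founding member, stood at 13.8, 15.7 and 13.4 times the median, and had 7 summits in the gene with 2 kb on either side. Rbp9 had a single summit, at 10.3, 9.41 and 9.22. The remaining family member, fne, was weakest with 3.98, 3.91 and 2.82, at an internal TSS. The order of the means, nrv3, futsch, elav, Rbp9 and fne, held in each replicate.

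The potassium channels had the highest median promoter signal of the 5 classes, although single genes of other classes were stronger. Sh, Shab and Shal, for voltage-gated channels of the Shaker, Shab and Shal subfamilies, had summits at ranks 398, 640 and 616 of the 8667 in the reproducible set. Shaker (Sh, FBgn0003380) reached 38.2, 32.8 and 33.8 times the list median (mean 34.9 ± 2.87, SD, n = 3). Shal (FBgn0005564) gave 23.8, 24.5 and 24.1, the closest agreement among all bound members. Shab (FBgn0262593) followed with 25.6, 22.8 and 21.4, a range that takes in Shal's values, so these 2 genes were not separated. Shaw was lower, at 7.38, 6.19 and 7.03. The slo gene, for the calcium-activated potassium channel, had 5.50, 1.98 and 4.81 at its promoter summit, the widest spread of the bound members, with an SD of 45.4% of the mean. The only channel of this class without a promoter summit was eag, whose nearest summit was 4542 bp from its TSS.

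**Figure D3:**
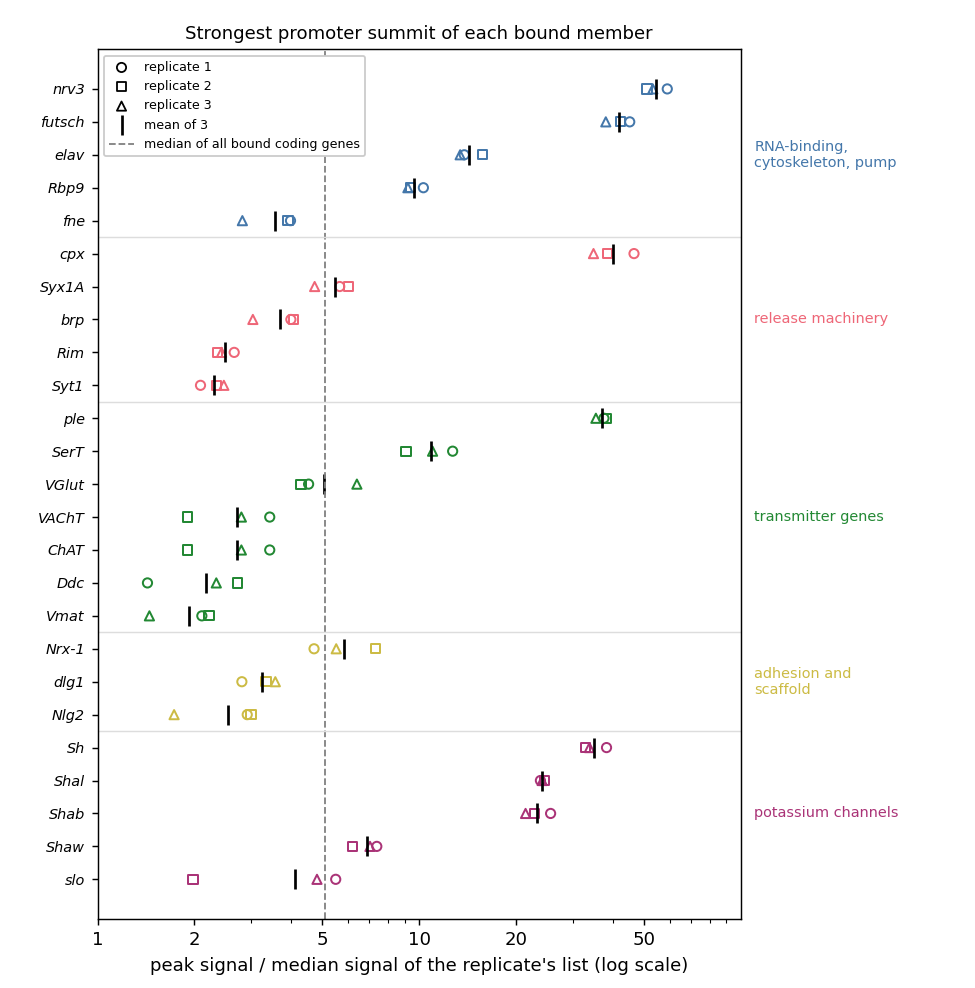
Signal of the strongest promoter summit of each of the 25 bound members, as a multiple of the median signal of the replicate's list (horizontal log axis), with genes grouped by class. Open symbols are the 3 replicates, black bars their mean and the dashed line the median of all bound protein-coding genes (5.11); nrv3 at 54.4 is highest and Vmat at 1.93 lowest.

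The release machinery had the lowest bound share of the classes in the reproducible set, and its strongest promoter peak was far above its others. To leave out a replicate, only summits of that set found in the top lists of both other replicates were kept. The set itself was made from all 3 replicates, so counts could fall but not rise. Release genes stayed at 5 of 11 throughout. Transmitter genes fell below them without replicate 1 or replicate 3 (4 of 10), but not without replicate 2 (5 of 10). VAChT and ChAT, with 1 shared summit, were counted as separate genes here. In the replicates' own top lists, 6, 5 and 6 of 10 transmitter genes and 5 of 11 release genes were bound, so the order held. The cpx gene (FBgn0041605), for complexin, which clamps and promotes SNARE-driven fusion, stood at 46.5, 38.4 and 34.8 times the list median (mean 39.9 ± 6.01, SD, n = 3). Next was Syx1A, for the membrane SNARE syntaxin, at 5.66, 6.02 and 4.73. The active zone scaffold gene brp had 3.99, 4.07 and 3.04. Rim, for a scaffold that links vesicles to calcium channels, had 2.66, 2.36 and 2.43, and Syt1, for the calcium sensor of release, 2.09, 2.35 and 2.47. Complexin lay far above the 4 other bound release genes in each replicate, while the values of Rim and Syt1 overlapped. The same 5 genes made up the count in each replicate's top list. The other 6 were not bound. They were nSyb (the vesicle SNARE), Snap25 (a membrane SNARE), cac (the presynaptic calcium channel), unc-13 (vesicle priming), Rab3 (a vesicle GTPase) and Syn (synapsin, which tethers the reserve pool). The unc-13 gene lies on chromosome 4, where only 8 of 80 protein-coding genes were bound. The summit nearest to Snap25 lay 649733 bp from its TSS and was the last one on arm 3L. The part of such peak-poor locations in the low share of the class was not tested.

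Among the transmitter genes, those of the monoamines held both the strongest and the weakest promoters. The ple gene (FBgn0005626), for tyrosine hydroxylase, the rate-limiting step of dopamine synthesis, which also serves cuticle pigmentation, stood at 37.5, 38.2 and 35.4 times the list median (mean 37.0 ± 1.44, SD, n = 3). SerT, for serotonin reuptake, had 12.7, 9.09 and 11.0. The 2 other bound monoamine genes were close to the bottom of the set. Ddc, for dopa decarboxylase, the step after ple, had 1.43, 2.73 and 2.34, and Vmat, the vesicular monoamine transporter, 2.11, 2.22 and 1.45. Ranges of Ddc and Vmat overlapped, and neither came near ple. The dopamine transporter gene DAT was not bound. The glutamate transporter gene VGlut had 4.53, 4.29 and 6.40. The cholinergic locus of VAChT and ChAT, whose transcripts share their start, had 3.43, 1.90 and 2.80. Neither GABA gene, Gad1 for its synthesis and VGAT for its vesicular transport, was bound. Counts of bound transmitter genes varied between replicates. The top lists of replicates 1, 2 and 3 bound 6, 5 and 6 of its 10 genes, and 3 were bound in all of them. Keeping only summits found in the top lists of both other replicates gave 4 genes without replicate 1, 4 without replicate 3 and 5 without replicate 2. Under these settings 24.0%, 24.2% and 23.8% of all protein-coding genes were bound. Among the 4333 strongest summits of the reproducible set, 3 transmitter genes and 3 release genes were left, and 5 potassium channels.

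The 3 bound adhesion and scaffold members had mostly weak promoter peaks. This did not hold for the 7 bound genes of the same role among the further genes counted below. Their mean signals were 52.2, 51.5, 39.9, 31.9, 9.04, 4.10 and 2.82 times the list median. Neurexin (Nrx-1), the presynaptic adhesion protein, had 4.71, 7.31 and 5.52 times the list median, and dlg1, for the scaffold Discs large of the PSD-95 family, 2.81, 3.34 and 3.57. Nlg2, for a neuroligin, the postsynaptic partner of neurexin, had 2.92, 3.00 and 1.73. Its relative Nlg1 was not bound. The top lists of replicates 1, 2 and 3 held 3, 3 and 2 of the 4 genes, and leaving out replicate 1 or replicate 2 gave 2.

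Set side by side in each replicate, the median promoter signal of the bound potassium channels was 23.8, 22.8 and 21.4 times the list median (mean 22.7 ± 1.19, SD, n = 3). For bound release genes it was 3.99, 4.07 and 3.04 (mean 3.70 ± 0.574), and for bound transmitter genes 3.43, 2.73 and 2.80 (mean 2.99 ± 0.388). Over all bound protein-coding genes the medians were 4.96, 5.57 and 4.81. Among these members the channel median lay above both other medians in each replicate, whereas the order of release and transmitter genes was not settled. The further channel and transmitter genes given below did not repeat the place of channels above transmitter genes. With VAChT and ChAT as 1 locus the transmitter medians became 3.98, 3.51 and 4.60 (mean 4.03 ± 0.547), below release genes in replicates 1 and 2 and above them in replicate 3 and in the mean. Single genes of the 3 classes overlapped, since the bound release genes ran from 2.30 to 39.9, the transmitter genes from 1.93 to 37.0 and the channels from 4.10 to 34.9. With 3 replicates, a two-sided exact sign-flip test of such differences cannot go below p = 0.25, and none was run.

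The summits of the strongest members lay close to their TSSs. The sequence under some of them, and under the weaker VGlut summit (rank 3161), is printed here to show how the TTCG words are placed. The windows are 61 bp long, centred on the summit, from the RefSeq copy of the dm6 genome, and are written 5′ to 3′ on the strand of the gene. Capitals mark each TTCG and its reverse complement CGAA. The first is the main promoter of Sh (chrX:18063322-18063382, minus strand), with its summit 105 bp upstream of the TSS, and the next is the promoter of ple (chr3L:6719562-6719622, minus strand), 67 bp upstream. Then come the strongest summit of cpx (chr3R:4281611-4281671, plus strand), which is intronic and precedes an internal TSS by 64 bp, and VGlut (chr2L:2400081-2400141, plus strand), 184 bp upstream. The last is the strongest elav summit (chrX:523454-523514, minus strand), 258 bp upstream of the TSS, shown as a strong peak with no such word. The window of the strong Shal summit, not printed, also held no such word within its 61 bp.
Sh: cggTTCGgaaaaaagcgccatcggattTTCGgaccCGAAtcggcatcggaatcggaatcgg
ple: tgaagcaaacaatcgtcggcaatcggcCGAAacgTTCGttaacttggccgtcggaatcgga
cpx: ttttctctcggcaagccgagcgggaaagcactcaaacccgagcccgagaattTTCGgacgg
VGlut: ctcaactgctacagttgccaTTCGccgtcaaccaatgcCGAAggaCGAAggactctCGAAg
elav: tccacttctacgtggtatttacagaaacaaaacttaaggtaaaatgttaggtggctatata

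In the wider window of 50 bp on each side, TTCG on either strand stood at 19 of the 24 distinct strongest promoter summits of bound members (79.2%, 95% exact Clopper-Pearson interval 57.8% to 92.9%). Among all 3262 such summits of bound protein-coding genes the share was 70.8%. The longer word TTCGG, which contains TTCG, stood at 11 of the 24 (45.8%, interval 25.6% to 67.2%), against 32.7%. Both intervals take in the share of all genes, so a difference was not detectable at this number of summits. Within the members, TTCGG was at 4 of 5 bound potassium channels (Sh, Shab, Shal and Shaw), at 4 of 6 transmitter summits (VGlut, Ddc, ple and SerT) and at 1 of 5 release genes (cpx). Sh had 5 TTCGG words in that window, and Shaw 3. The 11 summits with TTCGG had a median signal of 3450 in the reproducible set, against 549 for the 13 without it. Medians over all bound genes ran the same way, at 1307 and 665. For TTCG the members ran the other way, with 731 at the 19 summits that held it and 869 at the 5 without. Over all bound genes these medians were 869 and 654. The strong peaks of futsch and elav had no TTCGG, and the weak peak of Ddc had 1. Word matches are a description of the letters in these windows and show no site of contact. The strongest promoter summits of members had a median position 43 bp upstream of the TSS, and 16 of 25 lay upstream (64.0%), against 72.5% of all bound genes.

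Several members were bound at more than 1 of their starts. Sh, whose 139 kb hold 8 annotated TSSs, had promoter summits at 5 of them. Beside the main one they lay at TSSs 67646, 72568, 72633 and 96022 bp into the gene, the middle 2 being served by 1 summit. These internal peaks were weaker, at 4.31 to 9.37 times the list median over the replicates. The 3 TSSs without a promoter summit lay together between 48012 and 50850 bp, and the second strongest summit of the gene, at 26.1, 23.7 and 23.6 times the median, lay 3702 bp upstream of the first of them. Complexin had summits at 6 of its 8 TSSs. Its strongest peak was not at the first TSS, where the signal was 12.8, 8.61 and 9.78, but at the TSS 1484 bp inside the gene. Shab was bound at each of its 3 TSSs, with 14.2, 15.3 and 15.1 at the third. Of the bound members 8 had 2 or more promoter summits (32.0%), against 25.4% of all bound genes.

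Counted over whole genes with 2 kb on either side, 31 of the 36 members held a summit (86.1%), against 42.4% of all protein-coding genes. Together they held 83 distinct summits, 26 of them in potassium channel genes, 22 in release genes and 10 in transmitter genes. Summed gene by gene, members held 0.639 summits per 10 kb and all genes 0.830. Transmitter genes, with a median length of 8.52 kb, had 0.853 per 10 kb, potassium channels (51.8 kb) 0.723 and release genes (31.8 kb) 0.398. The release value rests on Snap25, whose 225 kb held no summit, and without it the class had 0.681, close to the channels. With VAChT and ChAT as 1 locus, transmitter genes had 0.741. In genes of 10 to 20, 20 to 40, and 40 kb and over, members and all genes had the same medians of 2, 2 and 3 summits. Under 10 kb the medians were 1 for members and 0 for all genes.

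**Figure D4:**
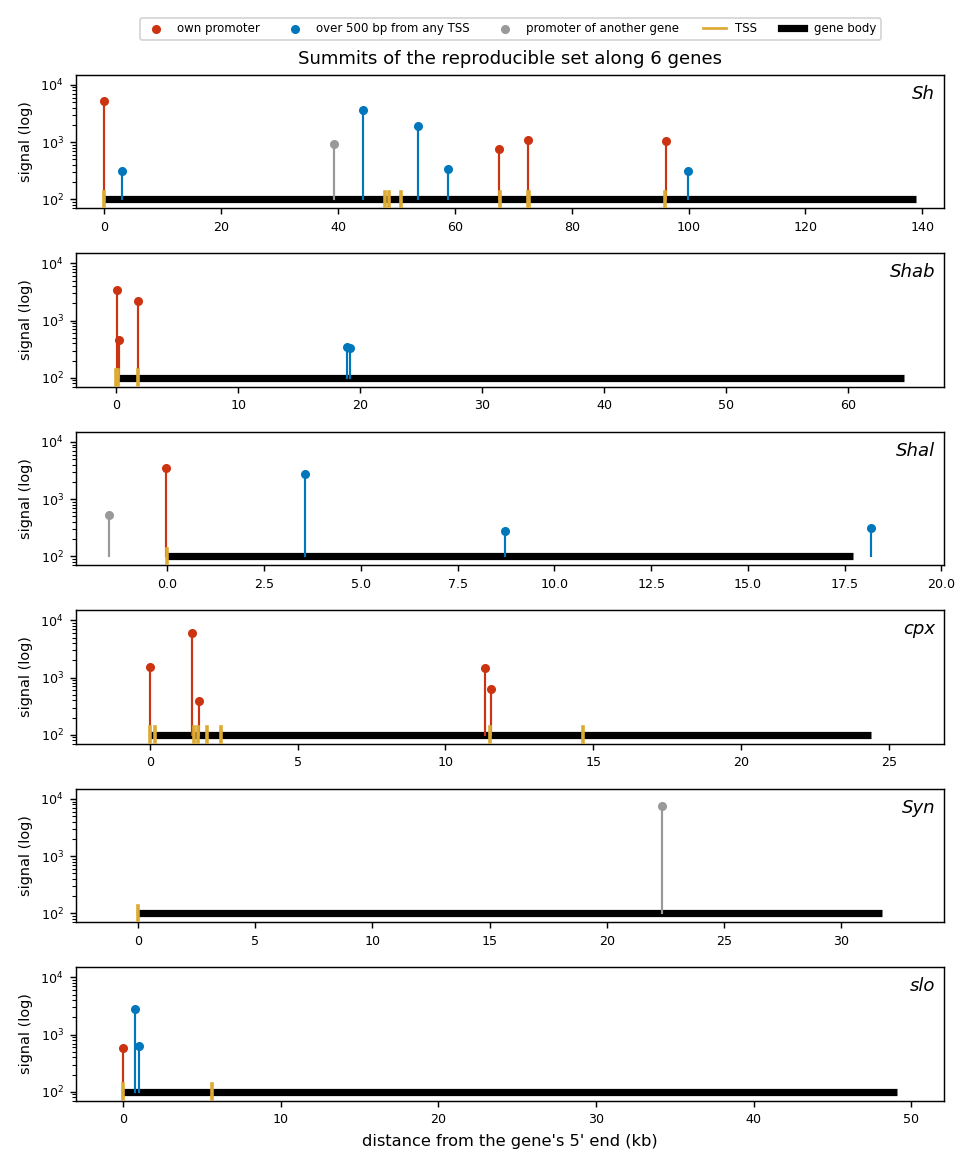
Summits along Sh, Shab, Shal, cpx, Syn and slo, with distance from the gene's 5′ end in kb on the horizontal axis and signal in the reproducible set on the vertical log axis. Black bars are gene bodies, yellow ticks TSSs and colours the kind of summit; the only summit of Syn is the grey one at the start of another gene.

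Of the 83 summits, 39 lay within 500 bp of the member's own TSS, 36 lay farther than that from any coding TSS, and 8 lay at the start of another coding gene. Coding exons held 0 of them, and 27 of the 36 were in introns. The median signal was 801 at own promoters and 397 at the 36, which stood at 5.66, 6.26 and 5.92 against 3.08, 2.71 and 2.59 times the list median in the replicates. Of the 36, 17 lay within 2 kb of an own TSS. For 7 of the 25 bound members the strongest summit was one of the 36 and not the promoter summit. VAChT and ChAT are both among the 7, with 1 shared summit. No such share over all bound genes is given here, so the count cannot be read as a trait of the members. At Nlg2 the strongest summit lay 766 bp upstream of the first TSS at 17.4, 13.2 and 16.1 times the median, well above the 2.92, 3.00 and 1.73 at the promoter. The slo gene had 19.5, 20.8 and 15.7 in an intron 753 bp past its first TSS, and Rim had between 11.9 and 14.2 in the replicates at 1512 bp upstream. At brp a summit 606 bp upstream of an internal TSS had 11.6, 8.45 and 10.1. The others were dlg1 and the VAChT and ChAT locus, with smaller gaps in signal. At that locus the strongest summit was distant, 14466 bp from the shared TSS. Shal had an intronic summit with 5 TTCGG words, 3563 bp past its TSS, at 21.7, 15.5 and 17.8.

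At 3 unbound members, every summit counted over the whole gene lay at the start of another gene. Within Syn the only summit, at 51.0, 52.6 and 49.1 times the median and rank 233 of the set, lay 22336 bp from the Syn TSS and 18 bp from the TSS of Timp, a gene nested in a Syn intron. The 3 summits at nSyb all lay at the starts of neighbours, the strongest (28.6, 23.5 and 26.4) 21 bp from CG13928. The 1 summit at DAT lay 12 bp from the TSS of CG4945. Those neighbours were named after their values were seen.

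The 11 unbound members were unbound in each replicate's top list too. Their nearest summit of the reproducible set was 797 bp away at DAT, 1854 bp at nSyb, 2309 bp at Gad1, 6355 bp at Rab3 and 7150 bp at VGAT. It was 18700 bp away at Nlg1, 18924 bp at cac, 20080 bp at Syn, 58859 bp at unc-13 and 649733 bp at Snap25. In the relaxed pooled list of 30000 peaks, 5 of the 11 had a summit within 500 bp of a TSS (nSyb, Rab3, Syn, VGAT and eag), against 16.4% of all genes without a summit of the reproducible set there. Those at nSyb, Rab3, Syn and VGAT had signals from 51.6 to 103, below the pooled list's median of 128. The one at eag had 209, closest to the lowest signal of the reproducible set, and 1.61, 1.57 and 1.19 times the median in the replicates. Snap25, unc-13 and DAT had no peak within 500 bp of a TSS in any list. A missing peak in such lists says that no enrichment was listed there, not that the protein was absent.

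Other genes of the same systems, listed by role, were bound at 57 of 109 (52.3%), between the members and all genes. By list the counts were 12 of 29 further release and vesicle cycle genes, 8 of 15 transmitter genes, 7 of 9 adhesion and scaffold genes and 9 of 16 potassium channel genes. The release count includes both stnA and stnB, which had the same promoter summit. Sodium, calcium and other cation channels had 7 of 12, and glutamate, GABA and amine receptors 14 of 28. Release genes had the lowest share of these 6 lists (41.4%). The strongest promoters were those of Tbh, the octopamine-synthesising hydroxylase, with 74.3, 71.6 and 59.9 times the median, Lar, a receptor tyrosine phosphatase, with 53.4, 50.3 and 53.1, and the teneurin Ten-a, with 57.4, 56.5 and 40.6.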

How the data were processed

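Chromatin immunoprecipitation and sequencing (ChIP-seq) was run on 3 biological replicates. Peaks were called on each replicate and on the pooled alignments against 1 control alignment, per the deposited description files, and the reproducible set was derived from these lists with IDR on dm6. Neither alignment and peak calling tools nor a cutoff for IDR are named in the labels or description files. The authors deposited a signal per peak, not scaled between lists, and a summit position. Genes and TSSs (19607 on 6 arms) came from Ensembl release 115. Replicate signal is that of the nearest summit among peaks holding the reproducible summit, over the list median. Top lists hold the 8667 strongest peaks. Bound genes were counted with Python 3.11.15 and pandas 2.3.3, a count first tested on simulated summits. Intervals (SciPy 1.17.1) cover counting over summits, not reads. Of 111 other pathway names, 6 matched an older RefSeq symbol and 2 matched none. All members are accounted for. Values per replicate are given at least for members in the top 10% by signal and for the strongest and weakest of each class, and 3 pathway genes were named by highest signal. Members and lists were chosen with earlier results of these data known. No peak was identical between replicates. Alternatives were other windows, flanks, TSS rules, a stricter set and leaving out each replicate.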

Additional observations from a re-analysis of the deposited data

How the results depend on the processing

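Of 92 values recomputed under other settings, 72 stayed within 1.5 times a count or density or within the spread. Keeping the 4333 strongest summits of the reproducible set gave 16 bound members, 3 release genes, 3 transmitter genes and 5 potassium channels, and 40 summits over whole genes (10, 4 and 15 in the 3 classes). Without the 2 kb flank, release genes held 14 and transmitter genes 6. Leaving out 1 replicate, as a filter on the reproducible set, gave 4 to 5 bound transmitter genes and 6 to 7 of their summits. Transmitter genes stood below release genes (5 of 11) without replicate 1 or replicate 3 (4 of 10), and above them without replicate 2 (5 of 10). With the highest replicate peak the median signal of all bound members was 6.08 times the list median. Summing a gene's promoter summits gave 6.01 for all, 5.58 for release genes and 24.1 for channels. With 100 bp on each side TTCG stood at 95.8% of member summits, against 87.3% of those of all bound genes. The depth of reads is unknown, so weak peaks such as those of Ddc and Vmat cannot be weighed against counting error. Counting VAChT and ChAT as 1 locus gave 24 of 35 loci and a transmitter median of 4.03, above the 3.70 of release genes, and leaving out Snap25 gave 0.681 release summits per 10 kb. These alternatives were chosen after seeing the data. No paired analysis was possible because there is 1 group.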

Other observations

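A shorter word, TCGG, recurred in the printed windows and was counted after it had been seen there. Within 50 bp of the strongest promoter summit, Sh held 10 copies on either strand. This was the highest count at any of the 3262 summits of bound protein-coding genes, which include that of Sh. Complexin held 6, ple, Shal and Shaw 5 each, and SerT 4. In all, 6 of 24 member summits held 4 or more (25.0%), against 7.79% of all bound genes, while the median was 1 in both. The 6 include Sh, cpx and ple, in whose printed windows the word was picked, so these shares cannot test an excess. The windows also differed in median GC content, 54.0% for members and 48.5% for all bound genes. TTCGG contains this word, so the counts overlap.

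Syx1A had a further summit 13 bp from its TSS with 5 TTCG words, listed at 1.44 and 0.452 times the median in replicates 1 and 3 and inside no peak of replicate 2. Its larger summit, 217 bp into the 5′ UTR, had no TTCG within 50 bp.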
